A study of Mus musculus with 32 samples.

Results

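C2C12 cells carrying Sir2 were compared with cells carrying the empty pHan vector after 36 h of differentiation, on 3 arrays per group, 6 of the 32 arrays of the series. The arrays were chosen by their titles, which give the construct and the time in hours. C2C12 is a line of mouse skeletal myoblasts, and each array held RNA of a whole culture. The groups used were Sir2 at 36 h, vector at 36 h, Sir2 at 12 h and vector at 12 h (n = 3 each), and untreated control cells of a separate set of arrays at 48 h and at 0 h (n = 2 each). That separate set also holds arrays of cells labelled TSA, which are not compared here. All Sir2 and vector cells shared the pHan backbone. The labels do not give the species or form of the Sir2 insert, its promoter, how many clones each line holds, or whether replicates came from separate cultures, so p values here measure only the spread between these samples, which may be technical.

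Sir2 proteins are NAD-dependent deacetylases that remove acetyl groups from histones and from transcription factors and their coactivators, and Sirt1 is the mouse counterpart of yeast Sir2. In muscle precursors Sirt1 is known for forming a complex with MyoD and the acetyltransferase PCAF (Kat2b). When serum is withdrawn, myoblasts leave the cell cycle under MyoD and myogenin, switch on the genes of the contractile apparatus and fuse into multinucleate myotubes.

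Values are MAS5 signal intensities, 1 per probe set and array, and log2 changes are Sir2 over vector with 8.82 added to each intensity before log2. Of 12422 probe sets, the 7453 with a mean of at least 31.1 over the 12 Sir2 and vector arrays were tested with limma, and a probe set passed under an adjusted p of 0.05. Some probe sets carry a suffix (_s_, _f_, _r_, _i_ or _g_) that marks possible cross-hybridisation or a weaker design. Of the genes named below as higher or lower, those that rest on such a set are Actc1, Actg2, Atp2a1, Atp2a2, Ckm, Cryab, Eef1b2, Gstm1, H2-D1, H2-D4, H2-K1, Ifi204, Mfap4, Mgp, Myh8, Nedd4, Tnnt1, Txnip and Zap70. Each array had a trimmed mean of 150.1, and an array's rank correlation with the others of its group was 0.970 to 0.976 at 36 h. The 3′ to 5′ signal ratio of Gapdh, a measure of RNA integrity, was 0.796 to 0.806 on the Sir2 arrays and 0.824 to 0.885 on the vector arrays, which did not overlap (exact permutation p = 0.1, two-sided, the smallest that 3 against 3 can give). That of Actb was 1.03 to 1.10 in both groups (exact permutation p = 0.7). The part of RNA integrity in the results was not tested.

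Sirt1 itself had intensities of 80.5, 69.2 and 35.8 on the 3 Sir2 arrays and 39.4, 19.6 and 36.9 on the 3 vector arrays. Sir2 replicate 3 lay within the vector range, and the change of 0.77 ± 0.27 (SE) did not pass (limma adjusted p = 0.106). At 12 h the groups did not overlap, with 37.5, 48.7 and 39.9 in Sir2 cells against 20.3, 9.48 and 14.2 in vector cells, and the probe set passed (log2 change 1.14, limma adjusted p = 0.0316). The probe set is one for mouse Sirt1, and since the insert's species is not given, whether it can read the transgene was not tested. Its reading alone does not check the label of Sir2 replicate 3. Without that array 493 probe sets passed at 36 h in place of 690, and without any 1 other array of 36 h 422 to 498.

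Myoblast markers were on all arrays, 10 of 10 tested, with summed intensities of 10060 to 11053 in Sir2 cells and 11226 to 11899 in vector cells, which did not overlap. Of the 10, 2 were higher at 36 h and none lower. The count of 2 was 1 without any 1 array of 36 h except Sir2 replicate 2. In untreated cells 8 of the 10 were higher at 48 h than at 0 h, so these markers also move with differentiation. Of the 10 markers listed for each of the other cell types, 2 leukocyte, 1 endothelial, 1 bone and cartilage, 3 adipocyte and 5 neuron markers were bright enough to test. Of the adipocyte markers 1 was higher at 36 h and none lower. Of the neuron markers 1 was higher at 36 h and none lower, and their summed intensities were 1767 to 1887 in Sir2 cells and 2007 to 2089 in vector cells, which did not overlap. Ptprc and Lyz2 (leukocytes), Cdh5 and Vwf (endothelium) and Myh11 and Cnn1 (smooth muscle) all fell below the filter. Of the smooth muscle list 6 were tested, and their sum was 3251 to 3673 in Sir2 cells against 4540 to 4871 in vector cells. The part of these cell types in the results was not tested.

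At 36 h, 690 of 7453 probe sets (9.26%) passed. Of these 450 (6.04%) were higher and 240 (3.22%) lower in Sir2 cells, covering 362 and 217 genes with 1 symbol. An absolute log2 change of 1 or more was seen for 83 of the higher and 30 of the lower probe sets. The arrays of the groups did not overlap for 448 of the 450 and all 240, against 2249 of all tested (30.2%). The median change over all tested was -0.02. With each array centred on its own median the split was 478 higher and 154 lower. The count was 431 without Sir2 replicate 1, 458 without vector replicate 1 and 422 without vector replicate 3. These are bulk samples, so fewer cells of a type and less RNA per cell cannot be told apart.

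Follistatin (Fst), a secreted protein that binds activins and myostatin and promotes muscle growth, was the gene lowered most. Its intensity was 53.5, 52.5 and 35.5 on the Sir2 arrays, against 383.5, 404 and 432 on the vector arrays. Every Sir2 array lay far below every vector array, and the means, 47.2 ± 10.1 and 407 ± 24.4 (SD, n = 3 each), differed 8.62-fold. The log2 change was -2.91 ± 0.26 (limma adjusted p = 5.94e-05), and it was already -1.71 at 12 h (adjusted p = 0.00273).

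Several more genes fell by over 1 on the log2 scale. Myl6b, a myosin light chain of slow and embryonic muscle, had 464, 378 and 465 in Sir2 cells against 1314, 1209 and 1185 in vector cells (log2 change -1.49 ± 0.15, limma adjusted p = 9.52e-05). Ndrg4, of a family of alpha/beta hydrolase-fold proteins, had 673, 708 and 620 against 1831, 1682 and 1674 (-1.36 ± 0.11, limma adjusted p = 2.49e-05). A second Ndrg4 probe set also passed, at -0.65. Cd24a, a glycosylated surface antigen, had 144, 117 and 93.3 in Sir2 cells and 297, 412 and 421 in vector cells (-1.60 ± 0.16, limma adjusted p = 1.07e-04). None of these groups overlapped. Chordin (Chrd), an extracellular antagonist of bone morphogenetic proteins, fell by 1.43 on the log2 scale, Reep1, which shapes the endoplasmic reticulum, by 1.29, and Padi2, a protein-arginine deiminase, by 1.27. Zap70 (-1.73), Nedd4 (-1.52) and Eef1b2 (-1.51) also ranked here, each on a probe set whose suffix marks possible cross-hybridisation. They are uncertain: the other tested probe sets of Zap70 and Nedd4 read -0.06 and -0.07. The Nedd4 call was lost without Sir2 replicate 2 or 3 or vector replicate 1 or 3 (limma adjusted p 0.0800 to 0.0982), and that of Eef1b2 without Sir2 replicate 1 or 2 or vector replicate 1 or 2 (0.0646 to 0.0691).

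On this log2 scale the 3 genes raised most were Ephx1, Plaur and Aqp1. Ephx1, the microsomal epoxide hydrolase that detoxifies reactive epoxides, had 285, 235 and 252 on the Sir2 arrays, against 22.8, 24.4 and 17.4 on the vector arrays. Its log2 change was 3.13 ± 0.25 (limma adjusted p = 2.49e-05), and its mean intensity was 11.9-fold higher. Plaur, the urokinase receptor that localises plasmin formation at the cell surface, had 97.2, 81.2 and 106 against 9.96, 8.69 and 6.51 (2.59 ± 0.18, limma adjusted p = 2.49e-05). Aqp1, a water channel, had 72.7, 44.1 and 40.7 against 4.23, 3.42 and 3.43 (2.26 ± 0.16, limma adjusted p = 2.49e-05). In all 3 genes the lowest Sir2 array lay above the highest vector array, which the rule that picked them required. All vector values of Aqp1 lie under the 8.82 added, so the size of its log2 change depends on that constant: it was 3.47 with 1 added and 1.26 with the 40th percentile added. The other Aqp1 probe set was too dim to test. The vector values of Plaur lie near 8.82, so the size of its change depends on the constant too.

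Further genes among the 12 highest were Krt19, an epithelial keratin (2.03), Gpr137b, a lysosomal membrane protein (2.02), Mgp, matrix Gla protein, an inhibitor of calcification (1.92), Prkg2, a cGMP-dependent kinase (1.82), Avil, an actin-binding protein of the villin family (1.81), and ceruloplasmin (Cp), a copper-carrying ferroxidase (1.76). All vector values of Krt19 and Prkg2 also lie under the constant, and their changes were 3.42 and 2.72 with 1 added and 1.06 and 1.005 with the 40th percentile, so their rank is not fixed. For Mgp the arrays read 165, 199 and 237 in Sir2 cells against 47.5, 44.5 and 45.5 in vector cells, on a probe set that may cross-hybridise. H2-D4 (1.997) and 1 probe set of Zfp36l2, an RNA-binding protein that destabilises messages (1.75), carry such a suffix too, and the other 2 Zfp36l2 probe sets read 1.21 and 0.30. B3gnt2, which extends poly-N-acetyllactosamine chains, read 1.75 on 1 probe set and 0.23 on another. Its call was lost without Sir2 replicate 1 or 3 or vector replicate 1 or 3 (limma adjusted p 0.0509 to 0.0543). Plin2, the coat protein of lipid droplets, had the smallest p of all. It read 1121, 1052 and 1129 in Sir2 cells against 331, 324 and 343 in vector cells (1.70 ± 0.09, limma adjusted p = 3.32e-06).

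**Figure D1:**
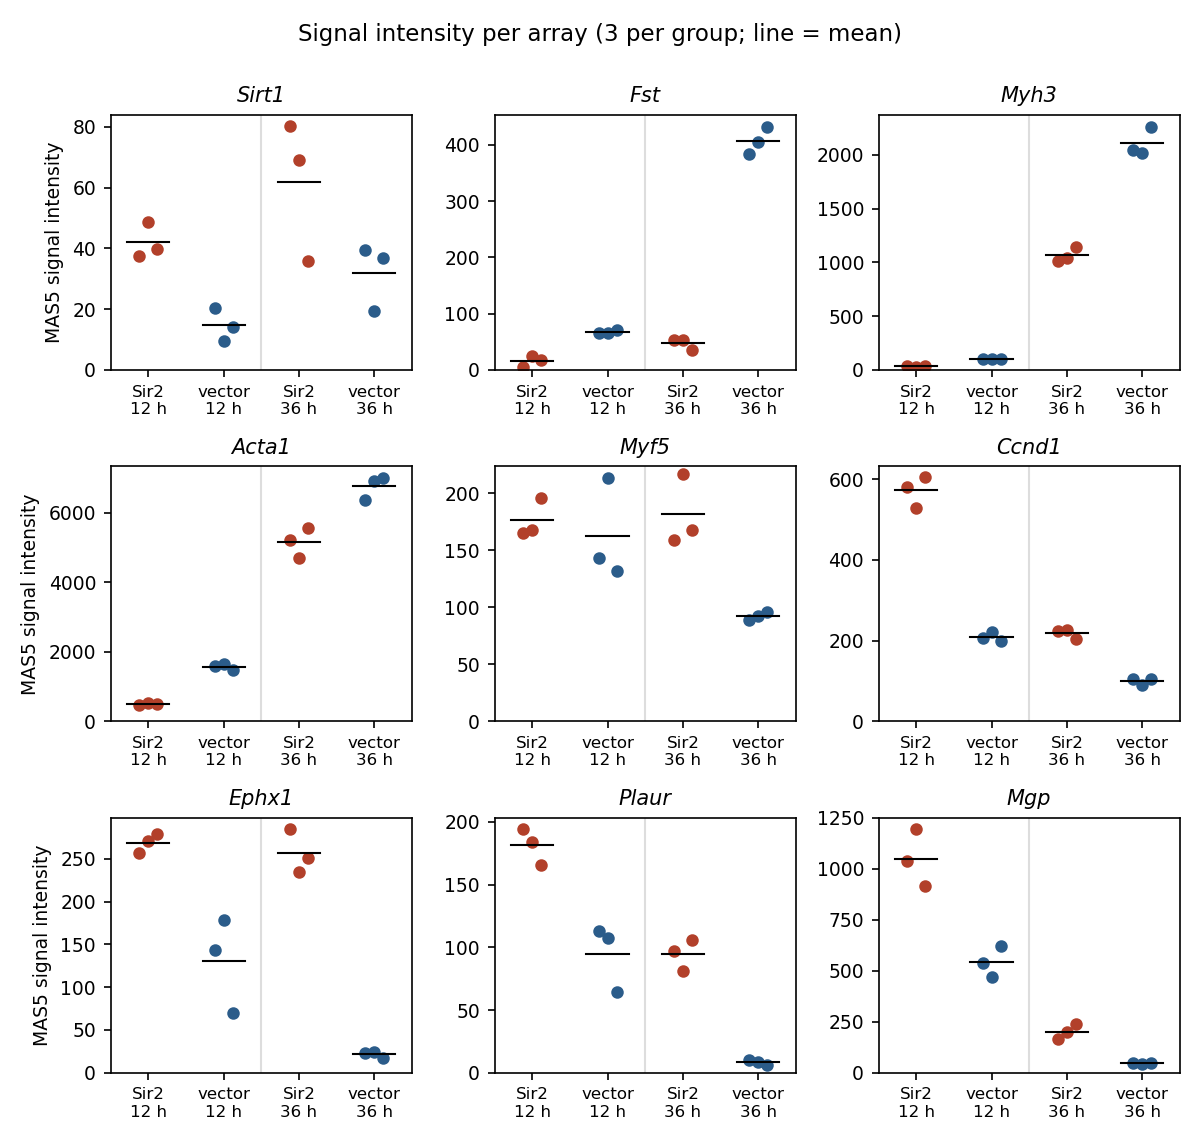
MAS5 signal intensity on each array (linear axis) for Sirt1, Fst, Myh3, Acta1, Myf5, Ccnd1, Ephx1, Plaur and Mgp in Sir2 and vector cells at 12 h and at 36 h, 3 arrays per group, with a line at the group mean. The 36 h groups overlap for Sirt1 and are separate for the other 8 genes, which the rule that picked Ephx1, Plaur and Mgp required of them.

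The 250 bases upstream of the start site are shown for 3 contractile or muscle-metabolic genes lowered with Sir2 and for the 3 genes raised most, from RefSeq on build GRCm38.p6, read 5′ to 3′ on the gene's strand. Capitals mark E-boxes (CANNTG, both strands), the CArG box bound by serum response factor, the MEF2 consensus (both strands) and the TATA box TATAAA on the gene's strand. The windows are chr8:123894776-123895025 (minus strand) for Acta1, chr11:67078050-67078299 (plus) for Myh3, chr7:19410844-19411093 (plus) for Ckm, chr1:181017570-181017819 (minus) for Ephx1, chr7:24462233-24462482 (plus) for Plaur and chr6:55336049-55336298 (plus) for Aqp1.
Acta1: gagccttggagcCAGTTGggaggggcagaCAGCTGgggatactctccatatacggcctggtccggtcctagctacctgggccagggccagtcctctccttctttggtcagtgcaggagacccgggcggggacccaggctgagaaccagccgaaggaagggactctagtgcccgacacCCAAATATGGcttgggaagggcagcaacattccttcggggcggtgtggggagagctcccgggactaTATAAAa
Myh3: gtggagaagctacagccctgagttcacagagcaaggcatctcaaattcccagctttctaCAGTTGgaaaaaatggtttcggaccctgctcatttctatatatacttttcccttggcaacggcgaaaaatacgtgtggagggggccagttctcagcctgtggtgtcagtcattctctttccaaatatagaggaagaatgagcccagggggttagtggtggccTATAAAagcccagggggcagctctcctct
Ckm: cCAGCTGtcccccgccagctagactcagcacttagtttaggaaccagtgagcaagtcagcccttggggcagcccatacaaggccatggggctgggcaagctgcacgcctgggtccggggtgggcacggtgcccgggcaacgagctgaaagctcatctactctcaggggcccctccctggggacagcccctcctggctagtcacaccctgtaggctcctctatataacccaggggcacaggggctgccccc
Ephx1: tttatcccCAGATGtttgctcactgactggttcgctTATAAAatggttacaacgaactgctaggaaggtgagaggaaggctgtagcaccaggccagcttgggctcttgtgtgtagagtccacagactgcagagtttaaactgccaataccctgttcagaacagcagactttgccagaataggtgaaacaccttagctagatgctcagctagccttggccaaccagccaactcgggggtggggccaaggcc
Plaur: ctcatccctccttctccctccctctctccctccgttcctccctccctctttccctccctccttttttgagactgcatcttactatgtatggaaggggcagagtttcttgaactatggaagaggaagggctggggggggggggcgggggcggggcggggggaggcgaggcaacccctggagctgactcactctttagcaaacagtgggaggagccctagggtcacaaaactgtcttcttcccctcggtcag
Aqp1: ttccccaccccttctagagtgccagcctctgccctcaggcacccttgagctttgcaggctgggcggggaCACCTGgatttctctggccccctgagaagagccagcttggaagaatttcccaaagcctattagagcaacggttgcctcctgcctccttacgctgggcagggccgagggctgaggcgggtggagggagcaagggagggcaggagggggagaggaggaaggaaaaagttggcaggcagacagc
The Acta1 window held 2 E-boxes, 1 CArG box and a TATA box, that of Myh3 1 E-box and a TATA box, and that of Ckm 1 E-box, CAGCTG. The Ephx1 window held 1 E-box and a TATA box match, the Aqp1 window 1 E-box, and the Plaur window none of these motifs. A CANNTG is in 66.2% of all 32851 promoter windows of the table, so a match alone separates few genes. CAGCTG, which is one form of CANNTG and the form preferred by MyoD and myogenin, was in 48 of the 253 windows of genes lowered with Sir2 (18.97%) and 48 of the 374 of genes raised (12.8%), against 11.7% of the 5884 windows of all genes tested. Other forms showed less contrast. CAGGTG or CACCTG was in 16.6% of lowered, 14.7% of raised and 15.0% of tested windows. Any CANNTG was in 62.1%, 61.0% and 57.0% of them. The CArG box was in 2.37% of lowered, 1.34% of raised and 1.38% of tested windows. It was in 5 of 17 windows, from 14 genes, of the sarcomere genes that fell (29.4%). It was in none of 14 windows of the matrix genes that rose, too few to tell from 1.38%. Sarcomere genes that did not fall were not counted, so a link of the CArG box to the fall was not tested. The MEF2 consensus was in 8 of 253 lowered windows (3.16%) and 6 of 374 raised, against 1.24% of tested. The TATA box was in 9.49% of lowered, 4.01% of raised and 4.3% of tested windows. These are matches of letters and not shown to be binding sites.

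Genes of the contractile apparatus were lower in Sir2 cells at 36 h. Counted with 1 probe set per gene, 9 of 11 tested thick filament genes fell and none rose, against 3.47% lower and 6.1% higher of all 5621 genes. Their median log2 change was -0.57, with -0.01 for all genes, and all 11 were below 0, also after quantile normalization or median centring. The count of 9 was 6 to 8 when any 1 array of 36 h was left out. Myh3, the embryonic myosin heavy chain, had 1010, 1045 and 1140 in Sir2 cells against 2048, 2011 and 2259 in vector cells (log2 change -0.98 ± 0.10, limma adjusted p = 1.56e-04). Myh1, the fast IIx myosin heavy chain, had 298, 413 and 329 against 883, 898 and 894 (-1.35 ± 0.16, limma adjusted p = 3.07e-04). For both genes every Sir2 array was below every vector array. Myh8, the perinatal heavy chain, fell by 0.95 and Myl4, the embryonic atrial light chain, by 0.91 on the log2 scale. A second Myl4 probe set read -0.08 (adjusted p = 0.836). The list counts at 36 h that follow are to be read against the same shares of all genes.

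Of 12 thin filament genes 5 fell and 1 rose, with a median of -0.42. Acta1, skeletal alpha-actin, was among the brightest signals, with 5226, 4705 and 5547 in Sir2 cells against 6374, 6925 and 7011 in vector cells. The groups did not overlap and the change was small, -0.39 ± 0.10 (limma adjusted p = 0.0332). Actc1, the cardiac alpha-actin that embryonic skeletal muscle also makes, fell by 0.45 on a probe set that may share sequence with other actins, and read -0.42 on another (adjusted p = 0.0608). Tnnt3, fast skeletal troponin T, had 925, 1000.1 and 1101 in Sir2 cells against 1486, 1794 and 1851 in vector cells (-0.75 ± 0.13, limma adjusted p = 0.00395). Tnnt1, slow troponin T, fell by 0.56 on both of its probe sets. Tpm1, alpha-tropomyosin, which non-muscle cells also make, went the other way, with 769, 830 and 764.5 in Sir2 cells and 493, 579 and 536.5 in vector cells (0.55 ± 0.10, limma adjusted p = 0.00364). The Acta1 call was lost without any 1 of the arrays except Sir2 replicate 3 (limma adjusted p 0.0523 to 0.110), and that of Tnnt1 without Sir2 replicate 2 or any 1 vector array (0.0506 to 0.0894). The count of 5 was 3 without Sir2 replicate 1 or 2 and 2 without any 1 vector array, 3 after quantile normalization and 2 after median centring.

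Of 11 genes of the Z-disc and muscle cytoskeleton 5 fell and none rose (median -0.75). Actn3, the alpha-actinin of fast fibres, had 613, 565 and 647 in Sir2 cells against 1155, 1480 and 1233 in vector cells (-1.07 ± 0.13, limma adjusted p = 3.56e-04), though a second probe set read -0.09 (adjusted p = 0.842). The chaperone Cryab, which guards desmin and the Z-disc, fell by 0.90. Csrp3, the muscle LIM protein, fell by 1.01, and Xirp1, an actin-binding protein of developing muscle, by 0.75. The Csrp3 call was lost without vector replicate 3 (limma adjusted p = 0.0618) and that of Xirp1 without Sir2 replicate 1 (0.0543). Without either of these arrays the count was 3. Desmin (Des), the muscle intermediate filament, read -0.36 (adjusted p = 0.106).

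**Figure D2:**
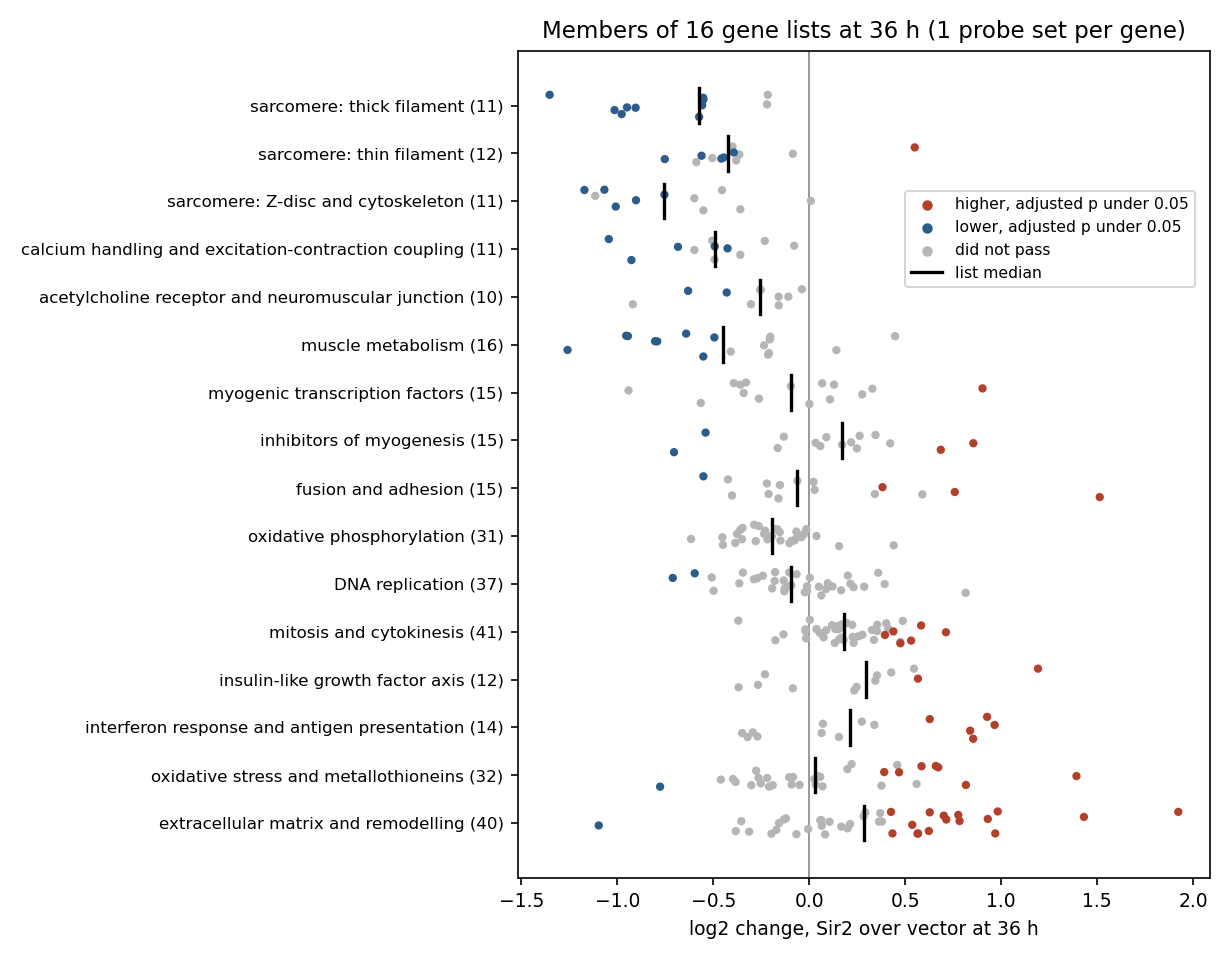
Log2 change at 36 h (Sir2 over vector, horizontal axis) of each tested gene of 16 lists, 1 point per gene, red for higher and blue for lower at adjusted p under 0.05, grey for genes that did not pass, with a black bar at the list median. All 11 thick filament genes lie below 0, and 29 of 40 extracellular matrix genes lie above 0.

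Of 15 myogenic transcription factors tested 1 rose and none fell, near the 6.1% and 3.47% of all genes, and the list median was -0.10. Over all 21 tested probe sets of these genes 1 was higher and 1 lower. The gene that rose was Myf5, the determination factor of proliferating myoblasts, with 159, 217 and 168 in Sir2 cells against 88.8, 92.3 and 95.5 in vector cells. The groups did not overlap (log2 change 0.90 ± 0.17, limma adjusted p = 0.00584). Myod1, the other determination factor, had 1152, 1243 and 1299.6 in Sir2 cells and 1716, 1514 and 1429.5 in vector cells, without overlap, but did not pass (-0.33, adjusted p = 0.0836). Myogenin (Myog), which starts terminal differentiation, had 3077, 2401 and 2803 against 3644, 3620 and 3312 and did not pass either (-0.36, adjusted p = 0.317). Mef2a (-0.39, adjusted p = 0.0768) and Mef2c (-0.94, adjusted p = 0.0802), partners of the MyoD family, also missed the threshold, and Myf6 was too dim to test. None of 8 acetyltransferases and coactivators passed. Kat2b, the acetyltransferase that joins MyoD and Sirt1, read 135, 155 and 105 in Sir2 cells against 137, 125.5 and 116.5 in vector cells (0.04, adjusted p = 0.888). None of 8 sirtuins and histone deacetylases and none of 7 genes of NAD metabolism passed at 36 h.

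Of 15 inhibitors of myogenesis 2 rose and 2 fell (median 0.17), beside 6.1% higher and 3.47% lower of all genes. Snai2, a zinc finger repressor that binds E-boxes, had 849, 724 and 849.9 in Sir2 cells against 442, 435 and 447.5 in vector cells (0.85 ± 0.12, limma adjusted p = 9.04e-04). Notch3, a receptor of the Notch pathway, rose by 0.69. Bhlhe40, a repressor of the bHLH family, fell by 0.54, and Msc (musculin), which opposes MyoD at E-boxes, by 0.71. The calls of these last genes were lost without 4 or 5 of the 6 arrays: Notch3 without Sir2 replicates 1 or 2 or vector replicates 1 or 3 (limma adjusted p 0.0630 to 0.133), Bhlhe40 without any but vector replicate 3 (0.0725 to 0.117), and Msc without any but Sir2 replicate 2 (0.0668 to 0.159). The Id proteins, which hold E proteins away from MyoD, did not pass, with 0.17 for Id1, 0.26 for Id2 and -0.16 for Id3 (adjusted p 0.493, 0.463 and 0.621).

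Genes of the mature fibre's calcium cycle were lower as well. Of 11 tested 5 fell and none rose, the median was -0.49 and all 11 were below 0. Atp2a2, the sarcoplasmic calcium pump of slow and cardiac muscle, had 490.2, 545 and 476 in Sir2 cells and 1039.6, 1142.5 and 966 in vector cells (-1.04 ± 0.10, limma adjusted p = 1.07e-04). Cacna1s, the pore of the L-type calcium channel that senses depolarisation, fell by 0.93, Cacng1, its gamma subunit, by 0.43, and Atp2a1, the fast-fibre calcium pump, by 0.69 and 0.49 on its probe sets. The count of 5 was 1 without Sir2 replicate 1 or vector replicate 2, 3 without Sir2 replicate 2 or vector replicate 1 or 3, and 3 after median centring. The Cacna1s call was lost without Sir2 replicate 1 or 2 or vector replicate 2 (limma adjusted p 0.0514 to 0.0669), that of Cacng1 also without vector replicate 3 (0.0513 to 0.0712), and that of the smaller Atp2a1 change without Sir2 replicate 1 or 2 or vector replicate 1 or 2 (0.0582 to 0.0712).

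Of 10 genes of the acetylcholine receptor and neuromuscular junction 2 fell and none rose (median -0.25). Chrnb1, the beta subunit, had 453, 538 and 532 in Sir2 cells against 797, 828.5 and 744.5 in vector cells (-0.63 ± 0.11, limma adjusted p = 0.00261). Chrng, the embryonic gamma subunit, fell by 0.43 on 1 probe set and read -0.24 on another, and its call was lost without any 1 of the 6 arrays (limma adjusted p 0.0720 to 0.126), which leaves a count of 1.

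Energy genes of muscle followed the same direction. Of 16 tested 8 fell and none rose, with a median of -0.45. Myoglobin (Mb), the oxygen store of muscle, had 739, 545 and 795 in Sir2 cells against 1428, 1715 and 1837 in vector cells (-1.26 ± 0.32, limma adjusted p = 0.0282). Ckb, the creatine kinase of early muscle and brain, had 1682, 1494 and 1781 against 3229.7, 3191.5 and 3123 (-0.95 ± 0.12, limma adjusted p = 5.45e-04). Ckm, the creatine kinase of mature muscle, had 143, 145 and 157 against 252, 271 and 377 (-0.95 ± 0.25, limma adjusted p = 0.0328), with -0.63 on a second probe set (adjusted p = 0.267). For these 3 genes the groups did not overlap. Pygm, muscle glycogen phosphorylase, fell by 0.64, Pgam2, the muscle phosphoglycerate mutase, by 0.79, and Fabp3, a fatty acid carrier of oxidative muscle, by 0.80 on the log2 scale. The Mb call was lost without any 1 of the 6 arrays (limma adjusted p 0.0509 to 0.0988) and that of Ckm without any but vector replicate 1 (0.0620 to 0.125). The count of 8 was 5 without Sir2 replicate 1, vector replicate 1 or vector replicate 2, and 4 without Sir2 replicate 2, Sir2 replicate 3 or vector replicate 3.

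Fusion and adhesion genes did not share a direction, with 3 of 15 higher, 1 lower and a median of -0.06, beside 6.1% higher and 3.47% lower of all genes. Vcam1, the adhesion molecule that binds integrin alpha 4, had 426, 401 and 339 in Sir2 cells against 129, 134 and 127 in vector cells (1.51 ± 0.11, limma adjusted p = 2.49e-05). Its other 2 probe sets also passed, at 0.77 and 0.62. The tetraspanin Cd9 rose by 0.76, and Cdh15 (M-cadherin), a cadherin of myoblasts and satellite cells, by 0.38. Cdon, a co-receptor that promotes myogenesis, fell by 0.55. The Cdh15 call was lost without any array but Sir2 replicate 2 (limma adjusted p 0.0517 to 0.0927), and that of Cdon without any but vector replicate 3 (0.0732 to 0.166). Of the dystrophin and sarcoglycan complex 1 of 9 genes fell and none rose (median -0.28).

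Regulators of the G1 phase were among the cell cycle genes that passed. Ccnd1 (cyclin D1), which drives the G1 phase and inhibits MyoD, had 222.5, 226 and 205 in Sir2 cells against 105, 89.7 and 105 in vector cells. The groups were far apart (1.06 ± 0.11, limma adjusted p = 1.04e-04), and a second probe set also passed at 0.86 (lost without Sir2 replicate 1, adjusted p = 0.0525). Cdkn1a (p21), the inhibitor that holds differentiating myoblasts out of the cycle, had 1759, 1711 and 1909 against 2491, 2332 and 2421 (-0.43 ± 0.10, limma adjusted p = 0.0206), with -0.44 on a second probe set (adjusted p = 0.179). Gadd45g, a growth arrest protein, rose by 0.39. The Cdkn1a call was lost without Sir2 replicate 1 or 2 or vector replicate 1 or 3 (limma adjusted p 0.0628 to 0.0703) and that of Gadd45g without any 1 of the 6 arrays (0.0503 to 0.134). These were the genes of 19 in the cell cycle exit list that passed, 2 higher and 1 lower (median -0.08). Over all genes the shares were 6.1% higher and 3.47% lower.

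Of 41 genes of mitosis and cytokinesis 6 rose and none fell, with a median of 0.18 and 35 above 0. Cks2, a cofactor of the mitotic kinase, had 462, 396 and 481 in Sir2 cells against 235, 277 and 295 in vector cells (0.71 ± 0.12, limma adjusted p = 0.00253). The count of 6 was 1 without Sir2 replicate 2 or vector replicate 3, 2 without Sir2 replicate 1 or 3, and 3 without vector replicate 2. Of 37 DNA replication genes none rose and 2 fell (median -0.09), beside 6.1% higher and 3.47% lower of all genes. Rrm2, the small subunit of ribonucleotide reductase, had 399.7, 456 and 386 in Sir2 cells against 741, 686 and 623 in vector cells (-0.71 ± 0.11, limma adjusted p = 0.00136). Pola2, a subunit of the polymerase alpha-primase, fell by 0.60 and read -0.39 on a second probe set (adjusted p = 0.616). Its call was lost without Sir2 replicate 1 or vector replicate 3 (limma adjusted p 0.0505 and 0.0515), which leaves a count of 1.

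Extracellular matrix genes held the most numerous rise. Of 40 tested 16 rose and 1 fell, the median was 0.29 and 29 were above 0. The count of 16 was 11 to 15 when any 1 array of 36 h was left out. Besides Mgp, decorin (Dcn), a small proteoglycan that binds collagen and TGF-beta, had 549.6, 508.5 and 535 in Sir2 cells against 174, 204 and 197 in vector cells (1.43 ± 0.14, limma adjusted p = 1.00e-04). Col3a1, the chain of type III collagen, had 2758.5, 2419.7 and 2564 on its brightest probe set against 1520.2, 1296 and 1244 (0.93 ± 0.12, limma adjusted p = 4.38e-04), and its other 2 probe sets passed at 0.90 and 0.85. In both genes the Sir2 arrays all lay above the vector arrays. The exception was Postn (periostin), a matrix protein of connective tissue, which fell, with 54.5, 61.9 and 65.2 in Sir2 cells against 122.5, 146 and 151 in vector cells (-1.10 ± 0.12, limma adjusted p = 1.85e-04).

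Beside 6.1% higher and 3.47% lower of all genes, 2 of 12 genes of the insulin-like growth factor axis rose and none fell (median 0.30). Both encode proteins that bind and hold the growth factors. Igfbp6 had 749.5, 662 and 699 in Sir2 cells against 277, 326 and 306 in vector cells (1.19 ± 0.12, limma adjusted p = 9.52e-05), and Igfbp2 rose by 0.57. Igf2, the growth factor that differentiating myoblasts make, read -0.37 (adjusted p = 0.266). Of 23 genes of TGF-beta, myostatin and follistatin only Dcn rose and only Fst fell, with a median of 0.04.

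Class I genes were among those that rose. Of 14 tested interferon response and antigen presentation genes 5 rose and none fell (median 0.21). H2-D1, a class I heavy chain, had 849, 836 and 939.6 in Sir2 cells against 429, 473 and 465 in vector cells (0.93 ± 0.10, limma adjusted p = 2.27e-04). H2-K1, the other main class I heavy chain, rose by 0.85, Ifi204, an interferon-induced p200 protein, by 0.84, and B2m, the light chain of class I, by 0.63. The class I probe sets can cross-hybridise among class I genes, as can that of Ifi204. The B2m call was lost without Sir2 replicate 2 or any 1 vector array (limma adjusted p 0.0510 to 0.0636), and the list count was 3 without Sir2 replicate 2, vector replicate 1 or vector replicate 2. Leukocyte markers, given as other sources of these genes, summed to 102 to 119 in Sir2 cells and 104 to 184 in vector cells, and Ptprc was near 0 in both, with at most 8.12 on any array.

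Of 32 genes of oxidative stress and metallothioneins 7 rose and 1 fell (median 0.03). Gsta4, which conjugates lipid aldehydes, had 84.5, 79.2 and 97.6 in Sir2 cells against 15.7, 32.6 and 38.8 in vector cells (1.39 ± 0.23, limma adjusted p = 0.00234). Txnip, an inhibitor of thioredoxin and of glucose uptake, rose by 0.82, though a second probe set did not pass, and Gstm1 rose by 0.66 on 1 probe set and read -0.08 on another. Gpx3, a secreted glutathione peroxidase, fell by 0.78. The count of 7 was 4 without Sir2 replicate 1 or 3.

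Lipid and fuel genes showed single changes rather than shared ones. Of 19 genes of fatty acid oxidation and lipid handling Cpt1a, which admits fatty acids to mitochondria, rose by 0.80, Lpl, lipoprotein lipase, rose by 0.97, and Fabp3 fell, with a list median of -0.02. Elovl6, an elongase of fatty acids, rose by 1.02 and 0.65 on its probe sets among 20 genes of sterol and fatty acid synthesis. Idh1, the cytosolic isocitrate dehydrogenase, rose by 0.84, and Pfkp, the platelet form of phosphofructokinase, by 0.80 and 0.77. None of 31 oxidative phosphorylation genes passed, although 28 of them were below 0 (median -0.20), or 25 after median centring. None of 24 cytosolic ribosomal protein genes passed either (median 0.04).

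Some smooth muscle genes are also made by early skeletal muscle. Of 6 tested 3 fell and none rose (median -0.39). Acta2, smooth muscle alpha-actin, had 1577, 1657 and 1741.5 in Sir2 cells and 2656, 2455 and 2670.4 in vector cells (-0.64 ± 0.15, limma adjusted p = 0.0186). Tagln, an actin-binding protein, fell by 1.08, and Actg2, the enteric actin, by 0.55. The Acta2 call was lost without Sir2 replicate 1 or 2 or vector replicate 1 or 3 (limma adjusted p 0.0509 to 0.0660), that of Actg2 without Sir2 replicate 1 or 3 or vector replicate 1 or 3 (0.0545 to 0.0856), and the count was 1 without Sir2 replicate 1, vector replicate 1 or vector replicate 3.

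The same contrast at 12 h, on separate arrays, shows which of these changes were already there. At 12 h 414 of 7453 probe sets passed (5.55%), 207 higher and 207 lower (2.78% each), and with median centring the split was 124 higher and 215 lower. The count was 241 without Sir2 12 h replicate 1 or 2 and 215 without vector 12 h replicate 3. Higher at both times were 95 probe sets, which is 21.1% of the 450 higher at 36 h and 45.9% of the 207 higher at 12 h. Lower at both times were 78, which is 32.5% of the 240 and 37.7% of the 207. Only 5 were higher at 36 h and lower at 12 h, and 2 lower at 36 h and higher at 12 h.

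Filament genes were among those lower at 12 h. Of the thin filament list 9 of 12 genes were lower at 12 h with a median of -1.10, and of the thick filament list 6 of 11 with a median of -0.99. Of the Z-disc and cytoskeleton list 2 of 11 were lower (median -0.26). Of the myogenic transcription factors 4 of 15 were lower and none higher (median -0.29). Over all genes at that time the shares were 2.97% lower and 3.02% higher. Acta1 read 473, 521 and 504 in Sir2 cells and 1600.1, 1642 and 1486 in vector cells at 12 h, a change of -1.64, and at 36 h the change was -0.39. The intensity in each group was higher at 36 h than at 12 h, and the difference between the effects passed (1.25 ± 0.15, limma adjusted p = 0.00254). Pgam2 read -2.60 at 12 h, with 3.92, 4.60 and 4.44 in Sir2 cells and 72.0, 68.3 and 71.8 in vector cells, and its difference passed too (1.81, limma adjusted p = 3.70e-04). These Sir2 values lie under the 8.82 added, so the sizes of both numbers depend on that constant. For Myh3 the changes, -1.34 at 12 h and -0.98 at 36 h, were not shown to differ (adjusted p = 0.256). Myog (-0.88, adjusted p = 0.0260) and Myod1 (-0.52, adjusted p = 0.0164) passed at 12 h and not at 36 h, and the differences between times did not pass (adjusted p 0.427 and 0.630).

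Proliferation genes were among those higher at 12 h. At 12 h 10 of 37 DNA replication genes were higher and none lower (median 0.33), and 12 of 41 mitosis genes were higher and none lower (median 0.41; 4 with median centring). The difference between times passed for 7 DNA replication genes and no mitosis gene. Rrm2 read 1014, 966 and 1069.7 in Sir2 cells and 855, 833 and 843 in vector cells at 12 h, a change of 0.27 that did not pass, and the difference of -0.98 to 36 h passed (limma adjusted p = 0.0116). Dusp6, a phosphatase that switches off ERK and is itself induced by it, was higher at both times, by 1.75 at 12 h and 0.86 at 36 h.

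Over all probe sets, 131 (1.76%) differed in their effect between the times, 95 (1.27%) with a more positive and 36 (0.483%) with a more negative change at 36 h. With median centring they were 120 and 21. The count of 131 was 45 to 80 without any 1 of the 12 arrays except Sir2 12 h replicate 3. Of the 95, 51 were higher at 36 h and passed only there, 21 were lower and passed only at 12 h, 10 were lower at both times, 8 higher at both and 5 higher at 36 h and lower at 12 h. Of the 36, 17 were lower and passed only at 36 h, 15 were higher and passed only at 12 h, 2 were lower at 36 h and higher at 12 h, and 2 passed at neither time. Ephx1 read 1.08 at 12 h and 3.13 at 36 h, and Plaur 0.91 and 2.59. In Ephx1 the Sir2 means of 269 at 12 h and 257 at 36 h stood against vector means of 131 and 21.5.

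**Figure D3:**
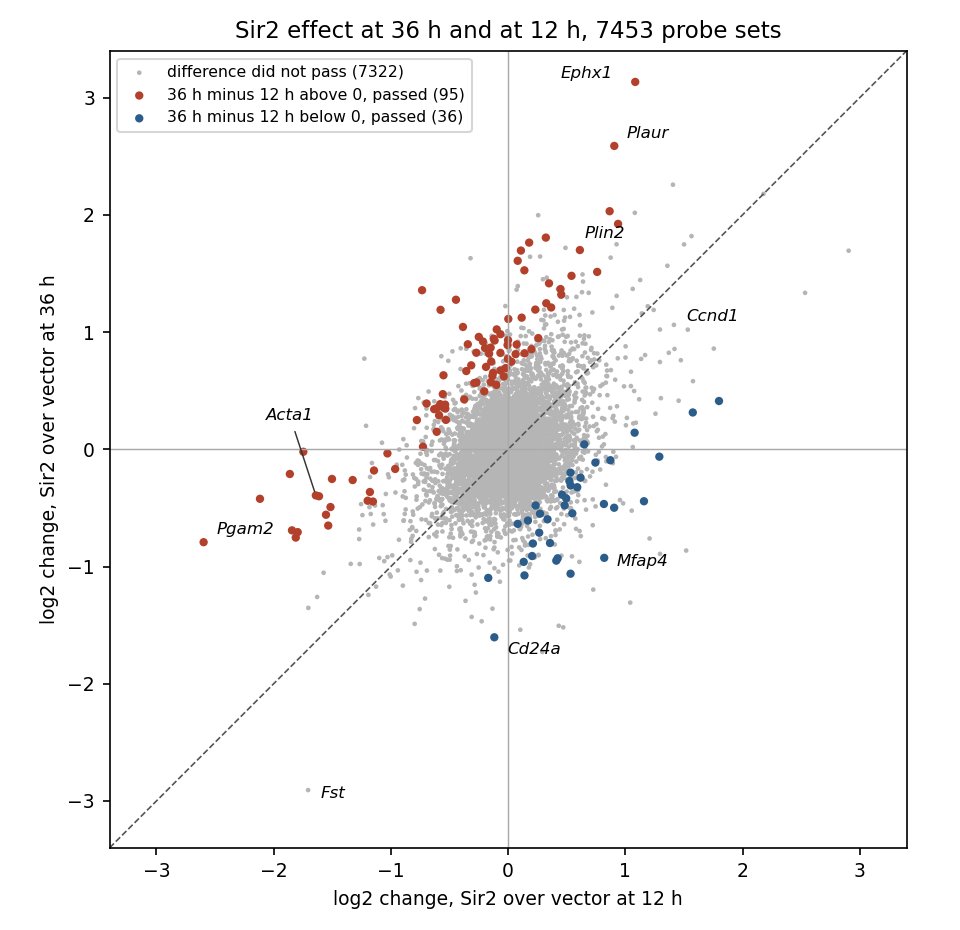
Log2 change (Sir2 over vector) at 36 h, vertical axis, against that at 12 h, horizontal axis, for 7453 probe sets, with the dashed line where both are equal. Red and blue points are the 95 and 36 probe sets whose change was more positive or more negative at 36 h, and Fst lies low at both times without being among them.

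The untreated cells show how these genes move between 0 h and 48 h when C2C12 cells differentiate without any construct. Of 7453 probe sets 35.3% passed between 48 h and 0 h, and of the 6633 tested in both sets of arrays 16.9% were higher and 20.6% lower at 48 h. Among the 214 probe sets lower with Sir2 at 36 h, 88 were higher at 48 h than at 0 h (41.1%) and 31 lower (14.5%), with a median log2 change of 0.37. Among the 418 higher with Sir2, 97 were higher (23.2%) and 160 lower (38.3%) at 48 h, with a median of -0.27. The median over the 6001 not called with Sir2 was -0.00353. No test was run on these shares.

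Of the lists, 8 of 9 thick filament and 11 of 12 thin filament genes were higher at 48 h than at 0 h in untreated cells, while 38 of 40 mitosis and 29 of 33 DNA replication genes were lower. The matrix genes were mixed, with 13 of 39 higher and 11 lower. Fst was higher at 48 h by 1.70, Myh3 by 5.85 and Acta1 by 6.71 on the log2 scale, all of them lower with Sir2. Ccnd1 (-2.18), Plaur (-1.93) and Mgp (-2.03) were lower at 48 h and higher with Sir2. Dcn (2.77), Ephx1 (2.26) and Plin2 (1.06) did not follow this opposition, being higher at 48 h and also higher with Sir2, and Ndrg4 (-1.25), Cd24a (-1.46) and Rrm2 (-2.74) were lower in both comparisons. Between 12 h and 36 h the vector means ran opposite to the untreated change for Ephx1 (131 to 21.5), Plin2 (580 to 333), Cd24a (194 to 376) and Ndrg4 (1359 to 1729). For those genes the opposition depends on which course is taken. The vector intensities of Rrm2 fell, as in untreated cells. Levels are not compared between the sets of arrays, which were processed differently.

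**Figure D4:**
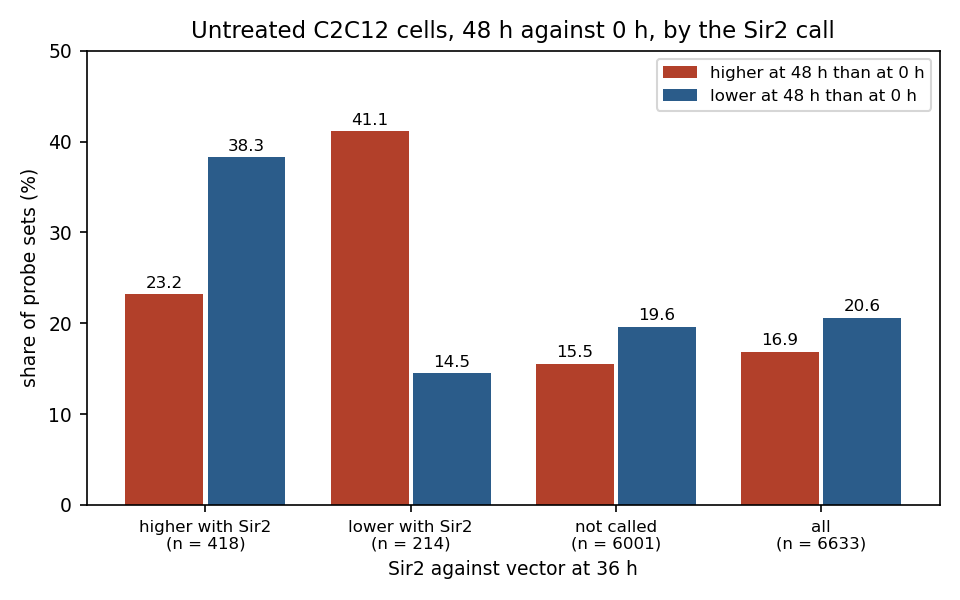
Share of probe sets (percent, vertical axis from 0) higher (red) or lower (blue) at 48 h than at 0 h in untreated cells, for probe sets higher with Sir2 at 36 h (n = 418), lower with Sir2 (n = 214), not called (n = 6001) and all (n = 6633). Of those lower with Sir2 41.1% were higher at 48 h, against 16.9% of all.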

How the data were processed

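The series holds 32 Affymetrix arrays of RNA from C2C12 cells, all of the same design. The deposited values are intensities on a linear scale, with 1 value for each probe set on each array. The Sir2 and vector intensities came from MAS5, per the submitters' processing notes, which state no version. For the arrays of untreated cells the tool was not found in the labels or files. Those arrays hold deposited intensities below 0, which were set to 0. The Sir2 and vector arrays had been brought to a common scale before deposit, as their common trimmed mean shows. This was not examined for the other arrays. The small number of arrays limits precision. Of the 12488 probe sets, 66 are platform controls and were not analysed. Among the 12422 others the platform annotation gave 10833 a single gene symbol, 396 several and 1193 none. Symbols were updated through Entrez identifiers, which gave 8251 genes.

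The deposited intensities were put on the log2 scale after adding 8.82, the 20th percentile of the Sir2 and vector arrays. In the other 20 arrays that percentile is -13.7 and could not be used as planned, so the 40th, 137.7, was added. The filter kept probe sets whose mean reached the 40th percentile of all means (31.1 and 144.9), 7453 in each set of arrays. All 12 Sir2 and vector arrays, and separately the other 20, were fitted with 1 mean per treatment and time in limma 3.58.1 (R 4.3.3), with lmFit and eBayes. The other 20 include arrays of cells labelled TSA, which entered the filter, the added constant and the spread of the untreated comparison. The first fit had 8 residual degrees of freedom and a prior of 3.93. P values were adjusted by the Benjamini-Hochberg method over all probe sets of a comparison, with a threshold of 0.05. Values after ± are SE for log2 changes and SD for intensities. Python 3.11.15 with numpy 2.4.6 and matplotlib 3.10.9 drew the figures.

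Genes were named by a rule: Sirt1; a set list of regulators and muscle genes whether or not they passed; the 12 largest changes per direction whose arrays did not overlap; up to 4 members of smallest p per list; and 8 of smallest p for the difference between times. Not all are printed. Lists were counted with the brightest tested probe set of each gene. The comparison, lists and rules were chosen with earlier results of these data known. Alternatives were other normalizations, pseudocounts and filters, a variance trend, robust variances, a replicate block, fits of the compared arrays alone, and leaving out each array.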

Additional observations from a re-analysis of the deposited data

Results flagged for a closer look

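The Sir2 effect differed between 36 h and 12 h for 131 probe sets by the test of the difference itself (limma adjusted p under 0.05). The genes below are those described here, with the log2 change at 36 h minus that at 12 h.

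In genes of muscle the difference was positive for Acta1 (1.25), for both Actc1 probe sets (0.71 and 1.69), Tpm1 (0.65), Tnnt3 (1.06), Atp2a1 (1.02), Pgam2 (1.81) and Cdh15 (0.92). It was negative for Myh8 (-1.36), Fabp3 (-1.02), Actg2 (-0.82) and Tagln (-1.22). Myh8, Fabp3, Actg2 and Tagln passed as lower at 36 h and did not pass at 12 h.

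Among genes of the cell cycle the difference was -0.98 for Rrm2, -0.93 for Pola2 and 0.96 for Gadd45g. In genes of matrix, adhesion and secreted factors it was 0.75 for Vcam1, 0.96 for Igfbp6, 0.98 for Mgp, -0.93 for Postn and -1.75 for Mfap4, a microfibril-associated glycoprotein that was higher at 12 h and lower at 36 h.

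Among the genes raised most at 36 h it was 2.05 for Ephx1, 1.68 for Plaur, 1.48 for Avil, 1.16 for Krt19, 1.58 for Cp and 1.09 for Plin2. It was also positive for Elovl6 (1.12), Txnip (0.98), H2-K1 (0.65), Ephb6, a kinase-dead ephrin receptor (1.09), Cdc42ep4, an effector of Cdc42 (1.59), and Cmbl, a hydrolase (1.77). The Sir2 arrays of Pgam2 and the vector arrays of Myh8 at 12 h all lie under the constant added before log2. So do the vector arrays of Krt19 at 36 h, and those of Plaur and Cdc42ep4 lie near it. The sizes of the differences of these genes depend on that constant. Cmbl was lower with Sir2 at 12 h and higher at 36 h. For Cd24a the difference was -1.49.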

How the results depend on the processing

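The count at 36 h, 690, was 422 to 706 when any 1 of the 12 arrays was left out, and within 1.5 times under every other setting tried. At 12 h the count of 414 was 215 to 383 without 1 array, 243 without the filter and 208 with only the 6 arrays of that time. The 131 differences between times became 45 to 113 without 1 array, 46 without the filter, 208 with a variance trend and 57 with the replicate block. In untreated cells 2630 became 1837 to 2305 without 1 array and 1534 with only the 4 arrays compared. The cause of these shifts was not tested. Fits that drop an array also hold fewer arrays, and the 2 were not separated. With the replicate letters as a replicate block 576 passed at 36 h, 315 at 12 h and 2609 in untreated cells. Same-letter arrays of the 2 groups correlated at 0.0499, 0.108 and 0.116 at 36 h in their deviations from group means. Different-letter arrays of the 2 groups correlated at -0.0986 to -0.012 at 36 h. At 12 h same-letter arrays correlated at 0.00274, -0.264 and -0.314, and different-letter arrays at -0.188 to 0.391. Deviations within a group sum to 0, so same-letter and different-letter values are not independent. The letters were not taken as pairs in the main fit, and whether they mark a shared batch was not tested. Leaving out 1 array of 36 h turned the sign of Kat2b, which ranged from -0.0751 (without Sir2 replicate 2; -0.0084 without vector replicate 3) to 0.19, and of Id3, which ranged from -0.37 to 0.00836 (without vector replicate 1); neither passed in any of these fits. Of 107 named gene results 91 passed, and 64 of these passed under each of the 22 alternatives that tested their probe set. The 60th percentile filter did not test the dimmer probe sets. Probe sets near the filter are the ones where intensity limits what could be seen.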

Other observations

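Other lists at 36 h gave these counts, to be read against 6.1% higher and 3.47% lower of all genes tested, and against 3.02% and 2.97% at 12 h. Of 20 immediate early genes 4 rose and 1 fell, with a median of 0.21, and at 12 h 8 rose and none fell (median 0.41). The count of 4 was 1 without Sir2 replicate 1, vector replicate 1 or vector replicate 3, and 2 without any 1 of the other arrays of 36 h. Of 12 FOXO target and atrophy genes 3 rose and none fell (median 0.16), and none rose without any 1 of the arrays except vector replicate 1. Of 28 genes of endoplasmic reticulum stress and amino acid response 3 rose and 1 fell (median 0.10). The 3 became 0 without Sir2 replicate 1 or 3 or vector replicate 1 or 3, 1 without vector replicate 2, 0 with the replicate block or no filter and 6 with a variance trend. Of 19 heat shock chaperones 2 fell (median -0.17), and 1 without Sir2 replicate 1, vector replicate 2 or vector replicate 3 or after median centring. Of 17 p53 targets 1 fell (median 0.03), and 0 after median centring. None of 31 ribosome biogenesis genes passed at 36 h, and 4 rose at 12 h, or 0 after median centring.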
